A study of Mus musculus with 8 samples.

Results

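Axonal transport was examined through the genes for its motors in the cortex of mice that express cytoplasmic TDP-43. The set comprises every gene in the deposited table of gene symbols whose symbol starts with Kif, Klc, Dctn or Myo and a digit or with Dync or Dynl, together with Pafah1b1, Ndel1, Nde1, Trak1, Trak2, Rhot1, Rhot2, Bicd1 and Bicd2. This rule took 61 of the 10601 named genes. It reads symbols only, but it was chosen with earlier results of these data known. The deposited table of symbols lists genes that passed a read threshold set by the authors, so motor genes with few reads in cortex are not among the 61.

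RNA sequencing after poly(A)+ selection was performed on right cortex, with 4 mice in the bigenic and 4 in the nontransgenic group. Bigenic animals combined a Camk2α-tTA driver with a tetO transgene for human TDP-43 whose nuclear localization signal was mutated (ΔNLS-hTDP-43). The Camk2α promoter restricts the driver mainly to forebrain excitatory neurons, whereas RNA was taken from whole cortical tissue, in which fewer cells of a type and less RNA per cell cannot be told apart. Mice of both groups were on a C57BL/6 background and received doxycycline, which represses the transgene, until day 28 of age, and cortex was collected after 10 days without it. Nontransgenic mice had neither transgene, so no group carried the driver alone. Mice are numbered here in the order of the deposited columns, which could not be matched to the replicate numbers of the labels.

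Neurons depend on motors because most proteins and organelles are made in the cell body and must reach distant synapses. Kinesins carry cargo along microtubules toward the axon tip, and cytoplasmic dynein, activated by dynactin and by adaptors such as Bicaudal D proteins, carries cargo back to the cell body. Trak proteins and the Miro GTPases, encoded by Rhot1 and Rhot2, couple mitochondria to both kinds of motor. Myosins move on actin and handle short-range transport and membrane shape, for example in dendritic spines. Mutations in KIF5A, DCTN1, DYNC1H1 and BICD2 cause motor neuron or axon diseases in humans.

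Many motor subunits are encoded by pairs or trios of related genes, and the balance within such families is compared below. Whether reads of 50 bases can be assigned to 1 gene of such a pair therefore matters, and 3 pairs are shown here as coding sequence from GENCODE M1 on NCBIM37, the assembly also called mm9. Capitals mark the bases that differ within the pair. Kif5a lies on the minus strand at chr10:126662755-126700136 and Kif5c on the plus strand at chr2:49474818-49630298, and coding bases 223 to 312 are given, which hold the ATP-binding loop of the motor domain (bases 34 to 57 of the stretch).

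Kif5a: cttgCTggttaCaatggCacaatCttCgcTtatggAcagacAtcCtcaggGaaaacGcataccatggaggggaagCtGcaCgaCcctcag
Kif5c: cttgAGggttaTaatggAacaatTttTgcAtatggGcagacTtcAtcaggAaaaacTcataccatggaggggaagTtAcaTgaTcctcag

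These 90 bases differ at 16 positions, which change 1 codon's amino acid. The ATP-binding loop is conserved among kinesins, and the differences within and around it still separate the genes. Dync1i1 (plus strand, chr6:5675639-5978039) and Dync1i2 (plus strand, chr2:71049763-71101360) encode the intermediate chains that link dynein to dynactin, and their first 90 coding bases are as follows.

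Dync1i1: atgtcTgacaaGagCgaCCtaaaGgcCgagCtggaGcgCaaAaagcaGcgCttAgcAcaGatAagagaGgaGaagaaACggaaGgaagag
Dync1i2: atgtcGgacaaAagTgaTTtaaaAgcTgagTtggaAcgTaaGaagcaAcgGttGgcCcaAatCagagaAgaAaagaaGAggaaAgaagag

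They differ at 22 positions with 0 changes of amino acid. Dynll1 (minus strand, chr5:115747119-115751008) and Dynll2 (minus strand, chr11:87793027-87801035) encode the LC8 light chains, which are among the smallest dynein subunits.

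Dynll1: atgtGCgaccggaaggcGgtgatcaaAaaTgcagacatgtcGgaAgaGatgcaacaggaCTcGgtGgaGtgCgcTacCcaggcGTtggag
Dynll2: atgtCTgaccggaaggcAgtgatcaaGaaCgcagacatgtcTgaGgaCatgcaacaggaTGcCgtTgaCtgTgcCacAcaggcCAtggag

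The first 90 bases of these genes differ at 18 positions, and 5 amino acids change. In none of the 18 pairs of related members compared below did the coding sequences share a window of 50 bases, and the longest shared run was 33 bases, between Kif1a and Kif1b. Over whole exons, UTRs included, the share of 50-base windows that occur once in the genome was lowest for Kif5b (79.5%), Dynll1 (86.4%), Kif3c (86.7%) and Kif2a (87.0%), so these genes lose more reads than the others when only uniquely mapped reads are kept. Both comparisons of windows took exact matches over 50 bases. Reads shortened by adaptor trimming or aligned with mismatches, which the authors allowed, were not examined. Exons of Kif2a and Kif3c also overlap another gene over 17.4% and 17.1% of their length, and those of Dctn6 over 11.8%. The sources used here do not say whether counting used the strand, so reads from the overlapped stretches cannot be assigned.

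Values are normalized read counts with column totals between 20.1 M and 22.0 M, and the reads behind them were estimated from the steps in the values at between 10.6 M and 31.9 M per mouse. Bigenic mouse 2 had the fewest reads and stood apart: its values rose with the GC content of genes by 0.28 (log2) per 10% of GC, against -0.13 to 0.03 in the other 7 mice. It was the highest of the 4 bigenic mice for 36 of the 61 members and the lowest for 14, and without it the log2(fold change) moved by over 1.5 times or changed sign in 0 of the 29 members called below and in 24 of the 32 others. All 12 neuronal markers examined passed the filter on low values, and 2 were higher and 6 lower in bigenic mice, with summed levels of 136887 to 180961 against 188805 to 206305. Of 14 choroid plexus markers 6 passed the filter and 5 of these were higher in bigenic mice, with summed levels of 14275 to 29482 against 6591 to 8221 and Ttr at 18520, 7741, 16795 and 11356 against 801, 236, 835 and 1023. Of the 5, Ttr passed the filter in both groups. Clic6, F5, Kl and Prlr passed it only through bigenic mice, with nontransgenic values of at most 99. Their calls as higher thus follow in part from the filter. Summed levels were lower in every bigenic than in every nontransgenic mouse for 9 astrocyte markers (109738 to 128435 against 135722 to 146475; 4 lower, 0 higher) and 10 microglial markers (6116 to 8135 against 8231 to 9539; 5 lower, 0 higher). Of 11 oligodendrocyte markers 1 was higher, and of 7 endothelial markers 1 was lower. Among all genes tested 20.5% were called higher and 15.4% lower. The part of these markers' cells in the results below was not tested.

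All 61 members passed the filter on low values. Of these, 29 differed between bigenic and nontransgenic mice by limma with the Benjamini-Hochberg adjustment over all 10588 genes tested, 20 higher and 9 lower in bigenic mice, and 32 did not pass the threshold of 0.05. Among all genes tested 35.9% passed, 20.5% higher and 15.4% lower, against 47.5% of the members, 32.8% higher and 14.8% lower. The share of members called lower was thus close to that of all genes, and the difference in the share called higher was not tested. Values of the groups did not overlap for 30 members (49.2%), against 39.0% of all genes. The median log2(fold change) was 0.09 over the members and 0.03 over all genes tested. Among the 22 kinesin heavy and light chain genes 8 were higher and 2 lower, among the 16 dynein and dynactin subunit genes 4 were higher and 3 lower, and among the 14 myosin genes 4 were higher and 2 lower.

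**Figure D1:**
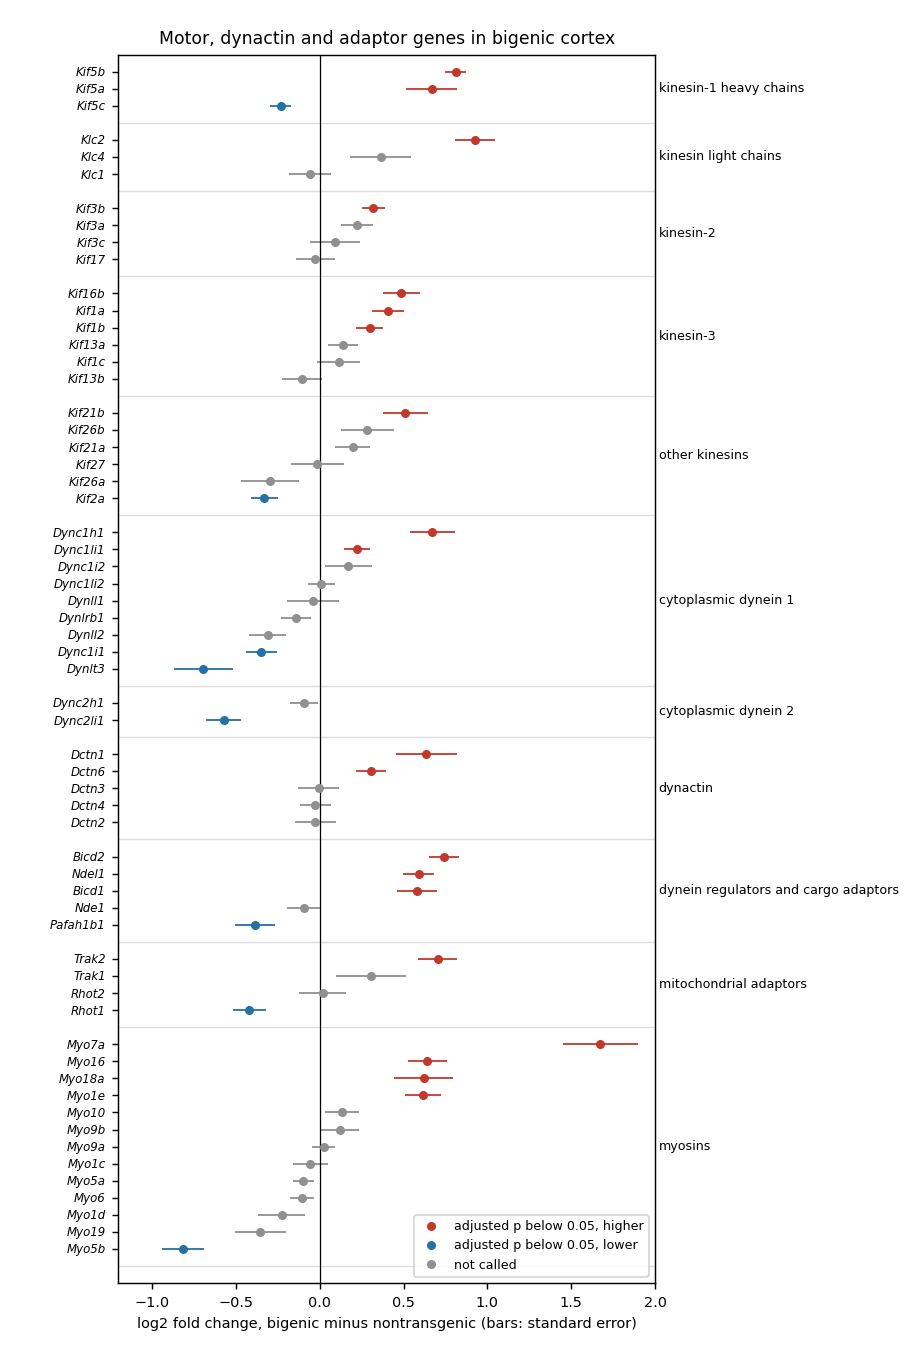
The x axis gives the log2(fold change) of the 60 members shown, bigenic minus nontransgenic, with its standard error as a bar, grouped by the role of the gene on the y axis (n = 4 mice per group). Red marks the 20 members called higher, blue 8 called lower and grey the 32 not called. Most groups hold members on both sides of 0, and Myo7a lies farthest to the right at 1.67.

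Kinesin-1 is the main motor for fast axonal transport, and its 3 heavy chain genes moved in different directions. Kif5a and Kif5b were higher and Kif5c was lower in bigenic mice. Kif5a, the neuronal heavy chain, had normalized counts of 121584, 194201, 118884 and 115288 in bigenic and 80686, 81004, 88195 and 87890 in nontransgenic mice. The groups did not overlap (log2(fold change) = 0.67, SE 0.15, adjusted p = 0.00759). Bigenic mouse 2 was far above the other 3, and without it the log2(fold change) was 0.49 (adjusted p = 7.61e-05). Kif5b, the heavy chain found in most cell types, had 18353, 19365, 20529 and 19859 in bigenic and 11290, 10862, 11424 and 10944 in nontransgenic mice. Its values were tight within each group and 1.75-fold higher in bigenic mice (log2(fold change) = 0.81, SE 0.06, adjusted p = 3.47e-05), the smallest adjusted p of all members. Kif5c, like Kif5a enriched in neurons, had 33693, 36291, 36932 and 35455 in bigenic and 41474, 39771, 43070 and 42930 in nontransgenic mice. Every bigenic mouse was below every nontransgenic mouse, by a small amount (log2(fold change) = -0.23, SE 0.06, adjusted p = 0.0174), and the call was lost without nontransgenic mouse 3 (adjusted p = 0.0607).

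Levels were also divided by exon length, taken as the union of all exons of a gene in GENCODE M1. The exons on which the authors counted reads may differ from these, so ranks and shares across genes depend on the annotation. On this scale Kif5a was the most abundant of all 61 members in nontransgenic cortex, with 12568 ± 619 (SD, n = 4) normalized counts per kb. Dynll2 (6092 ± 264) and Kif5c (5854 ± 216) followed, with values that do not differ beyond their spread. Of the summed heavy chain level per kb, Kif5a made up 63.1% ± 0.672 (SD) in nontransgenic and 72.2% ± 4.68 in bigenic mice. The share of Kif5c was 29.4% ± 0.427 in nontransgenic and 18.2% ± 2.94 in bigenic mice, and that of Kif5b was 7.56% ± 0.301 and 9.65% ± 1.73, with the ranges overlapping through bigenic mouse 2 (7.15%). The summed level itself was 19927 ± 827 in nontransgenic and 28087 ± 5688 in bigenic mice, with the bigenic mice at 25295, 36603, 25641 and 24808. All 4 bigenic mice exceeded the highest nontransgenic sum, 20702.

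Kinesin light chains bind the heavy chain tails and select cargo. Klc2 had 7732, 10541, 7441 and 8699 in bigenic and 4318, 4113, 4494 and 5075 in nontransgenic mice, and was 1.90-fold higher (log2(fold change) = 0.93, SE 0.12, adjusted p = 0.000375). Klc1, the main light chain of cortex, had 14264, 18836, 12541 and 12793 in bigenic and 15115, 14240, 14312 and 16458 in nontransgenic mice, with overlapping groups (log2(fold change) = -0.06, SE 0.13, adjusted p = 0.737; -0.19 without bigenic mouse 2). Bigenic mouse 2 was the highest of all 8 for Klc1, and mice 3 and 4 were below all nontransgenic mice. Klc2 made up 22.0% ± 0.769 (SD, n = 4) of the light chain level per kb in nontransgenic and 35.5% ± 2.28 in bigenic mice. The share of Klc1 was 74.7% ± 0.906 and 60.9% ± 2.26, and neither share overlapped between groups. Klc4 was a minor component and did not pass the test (log2(fold change) = 0.36, SE 0.18, adjusted p = 0.142; 0.17 without bigenic mouse 2).

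**Figure D2:**
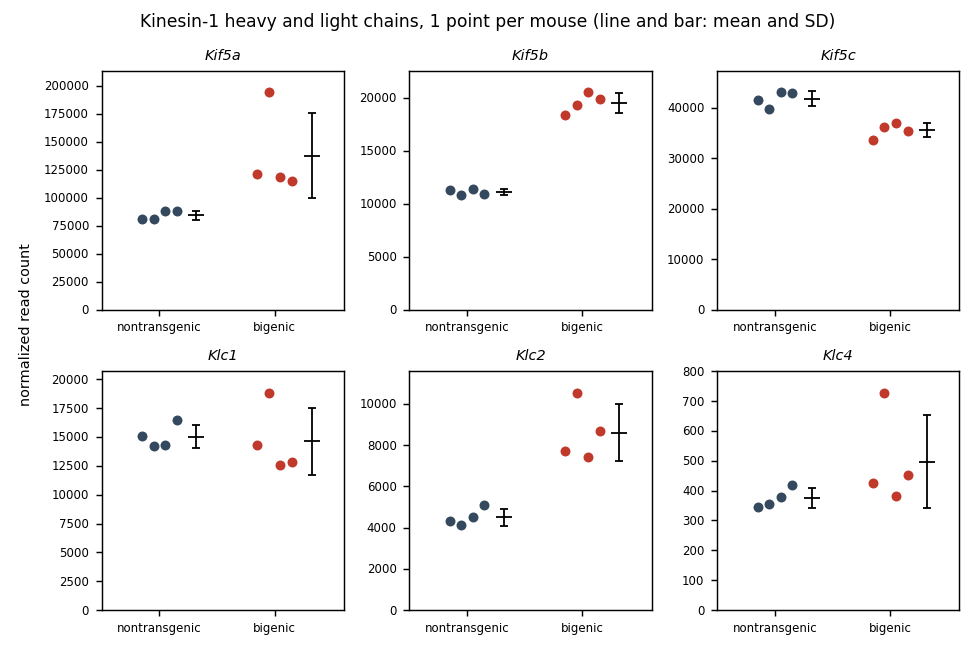
Each panel plots the normalized read count (y axis, starting at 0) of a kinesin-1 heavy or light chain gene in the 4 nontransgenic and 4 bigenic mice (x axis), 1 point per mouse, with the group mean and SD as a line and bar. Kif5a, Kif5b and Klc2 lie higher and Kif5c lower in every bigenic mouse, while Klc1 and Klc4 overlap.

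Of the kinesin-2 and kinesin-3 genes, none was lower and 4 of 10 were higher. For all genes tested the shares were 20.5% higher and 15.4% lower, and these 10 were not tested against them. Kif1a, which carries synaptic vesicle precursors, had 35630, 48226, 37983 and 38743 in bigenic and 29297, 28878, 29930 and 32129 in nontransgenic mice and was higher in every bigenic mouse (log2(fold change) = 0.41, SE 0.10, adjusted p = 0.00895). Its relative Kif1b, which carries mitochondria and vesicle precursors, was also higher (log2(fold change) = 0.30, SE 0.08, adjusted p = 0.0162), and lost its call without nontransgenic mouse 2 (adjusted p = 0.0537). Kif16b, a motor of early endosomes, was higher at a low level (log2(fold change) = 0.49, SE 0.11, adjusted p = 0.00725). Kif13a, Kif13b and Kif1c did not pass the test, with log2(fold changes) between -0.11 and 0.14.

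Kinesin-2 is a trimer of Kif3a, Kif3b or Kif3c and the accessory protein Kifap3. Kif3b was higher (log2(fold change) = 0.32, SE 0.07, adjusted p = 0.00607). Kif3a had 7716, 9567, 7599 and 7348 in bigenic and 7164, 6545, 6564 and 7215 in nontransgenic mice. It is the only member whose groups did not overlap without passing the test (log2(fold change) = 0.22, SE 0.09, adjusted p = 0.0877; 0.14 without bigenic mouse 2). Kif3c (log2(fold change) = 0.09, SE 0.15, adjusted p = 0.652; -0.08 without bigenic mouse 2) and the homodimeric motor Kif17 (log2(fold change) = -0.03, SE 0.12, adjusted p = 0.874) also did not pass. Kifap3, which the selection rule does not take, moved the other way: it had 5374, 4637, 5424 and 5226 in bigenic and 10543, 9423, 9684 and 9154 in nontransgenic mice (log2(fold change) = -0.91, SE 0.08, adjusted p = 4.78e-05).

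Among the remaining kinesins, Kif21b had 3608, 5677, 4077 and 4501 in bigenic and 2942, 3044, 2865 and 3550 in nontransgenic mice (log2(fold change) = 0.51, SE 0.13, adjusted p = 0.0151), and its relative Kif21a did not pass (log2(fold change) = 0.20, SE 0.10, adjusted p = 0.161; 0.11 without bigenic mouse 2). Kif21 motors regulate microtubule growth and dendritic transport. Kif2a, which depolymerizes microtubule ends rather than walking along them, was lower (log2(fold change) = -0.33, SE 0.08, adjusted p = 0.0105), with the limit on its read assignment given above. Kif26a, Kif26b and Kif27 were at low levels, from 130 to 307 normalized counts in single mice, and did not pass the test.

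In cytoplasmic dynein 1, the motor of retrograde transport, 2 of 9 subunit genes were higher and 2 lower. That is 22.2% each way, against 20.5% higher and 15.4% lower among all genes tested, a difference that was not tested. Dync1h1 (chr12:111839662-111905155, plus strand), the only heavy chain of this motor, had 37475, 55042, 39649 and 42441 in bigenic and 27001, 24251, 25259 and 32530 in nontransgenic mice. All bigenic mice were above all nontransgenic mice (log2(fold change) = 0.67, SE 0.13, adjusted p = 0.00375), and the difference was 0.56 without bigenic mouse 2 (adjusted p = 0.000843). The intermediate chain gene Dync1i1, expressed mainly in neurons, had 1823, 2225, 1822 and 1814 in bigenic and 2685, 2283, 2360 and 2431 in nontransgenic mice. Its groups did not overlap (log2(fold change) = -0.35, SE 0.09, adjusted p = 0.0153), but the call was lost without nontransgenic mouse 1 (adjusted p = 0.0512). Dync1i2, the form found in most cells, had 5676, 7501, 4740 and 4731 in bigenic and 4978, 4723, 4711 and 5350 in nontransgenic mice, and the groups overlapped (log2(fold change) = 0.17, SE 0.14, adjusted p = 0.356; 0.03 without bigenic mouse 2). The share of Dync1i1 in the summed intermediate chain level per kb was 57.9% ± 1.74 (SD, n = 4) in nontransgenic and 49.0% ± 3.25 in bigenic mice, without overlap. These shares rest on exon lengths of 2.97 kb for Dync1i1 and 8.28 kb for Dync1i2, whose count was the higher in every mouse.

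The light intermediate chain gene Dync1li1 was slightly higher (log2(fold change) = 0.22, SE 0.08, adjusted p = 0.0466) and lost its call when bigenic mouse 1, 3 or 4 or nontransgenic mouse 1, 2 or 3 was left out (adjusted p between 0.0555 and 0.141). Dync1li2 did not pass the test (log2(fold change) = 0.01, SE 0.08, adjusted p = 0.923). Of the light chains, Dynlt3 had the largest decrease of the dynein subunits, with 2308, 1421, 2567 and 2369 in bigenic and 3715, 3412, 3716 and 2893 in nontransgenic mice (log2(fold change) = -0.69, SE 0.17, adjusted p = 0.0126). Its lowest value was that of bigenic mouse 2, and without it the log2(fold change) was -0.50 (adjusted p = 0.00116). Dynll1 had 2354, 1803, 3082 and 3065 in bigenic and 2642, 2601, 2557 and 2544 in nontransgenic mice, a mixed pattern with the bigenic mice on both sides of a narrow nontransgenic range (log2(fold change) = -0.04, SE 0.16, adjusted p = 0.861; 0.12 without mouse 2). Dynll2 had 12229, 17064, 12114 and 12847 in bigenic and 17373, 15766, 17090 and 16394 in nontransgenic mice. Of the bigenic mice 3 were below all nontransgenic mice and mouse 2 was inside their range, and the test was just missed (log2(fold change) = -0.31, SE 0.11, adjusted p = 0.0501), whereas without that mouse the log2(fold change) was -0.43 with an adjusted p of 0.000179. Dynlrb1 did not pass the test (log2(fold change) = -0.14, SE 0.09, adjusted p = 0.24). In cytoplasmic dynein 2, which works inside cilia, Dync2li1 had 234, 194, 218 and 192 in bigenic and 291, 319, 319 and 316 in nontransgenic mice and was lower in every bigenic mouse (log2(fold change) = -0.57, SE 0.10, adjusted p = 0.0026), while its heavy chain gene Dync2h1 did not pass (log2(fold change) = -0.09, SE 0.08, adjusted p = 0.418).

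In dynactin, the complex that makes dynein processive, 2 of 5 subunit genes were higher and none was lower. This small group was not tested against the 20.5% higher and 15.4% lower of all genes tested. Dctn1 (chr6:83115914-83150111, plus strand) encodes the subunit that binds microtubules and dynein, and had 11863, 19953, 10866 and 11634 in bigenic and 8458, 7702, 7806 and 10100 in nontransgenic mice. Bigenic mouse 2 was far above the others (log2(fold change) = 0.64, SE 0.18, adjusted p = 0.0214), and without it the log2(fold change) was 0.44 (adjusted p = 0.00282). The call was lost without nontransgenic mouse 1, 2 or 3 (adjusted p between 0.0539 and 0.0637). Dctn6, a subunit of the pointed end of the dynactin filament, was slightly higher (log2(fold change) = 0.31, SE 0.09, adjusted p = 0.0228) and lost its call without bigenic mouse 1 or nontransgenic mouse 1, 2 or 3 (adjusted p between 0.0514 and 0.0732). Dctn2, Dctn3 and Dctn4 had log2(fold changes) between -0.03 and -0.01 and did not pass, but Dctn2 was lower without bigenic mouse 2 (-0.16, adjusted p = 0.0369).

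Of 5 genes whose proteins regulate dynein or couple it to cargo, 3 were higher and 1 lower. The shares of all genes tested were 20.5% higher and 15.4% lower, and the 5 were not tested against them. Pafah1b1, which encodes LIS1, a dynein activator whose loss causes lissencephaly, had 18034, 14257, 21025 and 20163 in bigenic and 25907, 22684, 23881 and 22618 in nontransgenic mice. Every bigenic mouse was below every nontransgenic mouse (log2(fold change) = -0.39, SE 0.12, adjusted p = 0.0288). Bigenic mouse 2 was the lowest, and without it the log2(fold change) was -0.27 (adjusted p = 0.0108). The call was lost without bigenic mouse 1 or nontransgenic mouse 1, 2 or 3 (adjusted p between 0.0554 and 0.0849). Ndel1, whose protein binds LIS1 and tethers it to dynein, moved the other way, with 3293, 2870, 3659 and 3650 in bigenic and 2259, 2153, 2326 and 2174 in nontransgenic mice (log2(fold change) = 0.59, SE 0.09, adjusted p = 0.00103). Nde1, its close relative, did not pass the test (log2(fold change) = -0.09, SE 0.10, adjusted p = 0.483).

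Both Bicaudal D genes, which encode adaptors that join dynein and dynactin to vesicles, were higher. Bicd2 (chr13:49436918-49482394, plus strand) had 4187, 5313, 4365 and 4784 in bigenic and 2765, 2774, 2618 and 2955 in nontransgenic mice (log2(fold change) = 0.74, SE 0.09, adjusted p = 0.000287). Bicd1 had 2544, 1876, 2299 and 2451 in bigenic and 1641, 1372, 1375 and 1729 in nontransgenic mice (log2(fold change) = 0.58, SE 0.12, adjusted p = 0.00452). The summed level of the 2 genes per kb was 549 ± 33.2 (SD, n = 4) in nontransgenic and 901 ± 61.9 in bigenic mice, and the share of Bicd2 was 79.8% ± 1.40 and 81.3% ± 3.32, which overlapped.

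Of the 4 genes that couple mitochondria to motors, Trak2 was higher and Rhot1 lower. No test set these 4 against all genes tested, of which 20.5% were higher and 15.4% lower. Trak2 had 9672, 12562, 8818 and 8543 in bigenic and 5762, 5861, 6137 and 6255 in nontransgenic mice (log2(fold change) = 0.70, SE 0.12, adjusted p = 0.00154). Trak1 had 4569, 8936, 4565 and 4768 in bigenic and 4145, 3990, 4285 and 5363 in nontransgenic mice. Bigenic mouse 2 was far above the other 3, which were inside the nontransgenic range, and it did not pass the test (log2(fold change) = 0.31, SE 0.21, adjusted p = 0.272; 0.07 without that mouse). Rhot1, which encodes Miro1, had 1799, 1375, 1597 and 1577 in bigenic and 2333, 2115, 2082 and 1935 in nontransgenic mice and was lower in every bigenic mouse (log2(fold change) = -0.42, SE 0.10, adjusted p = 0.0084). Rhot2, which encodes Miro2, had 922, 1392, 930 and 987 in bigenic and 936, 989, 1006 and 1201 in nontransgenic mice and did not pass (log2(fold change) = 0.02, SE 0.14, adjusted p = 0.926; -0.12 without bigenic mouse 2).

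**Figure D3:**
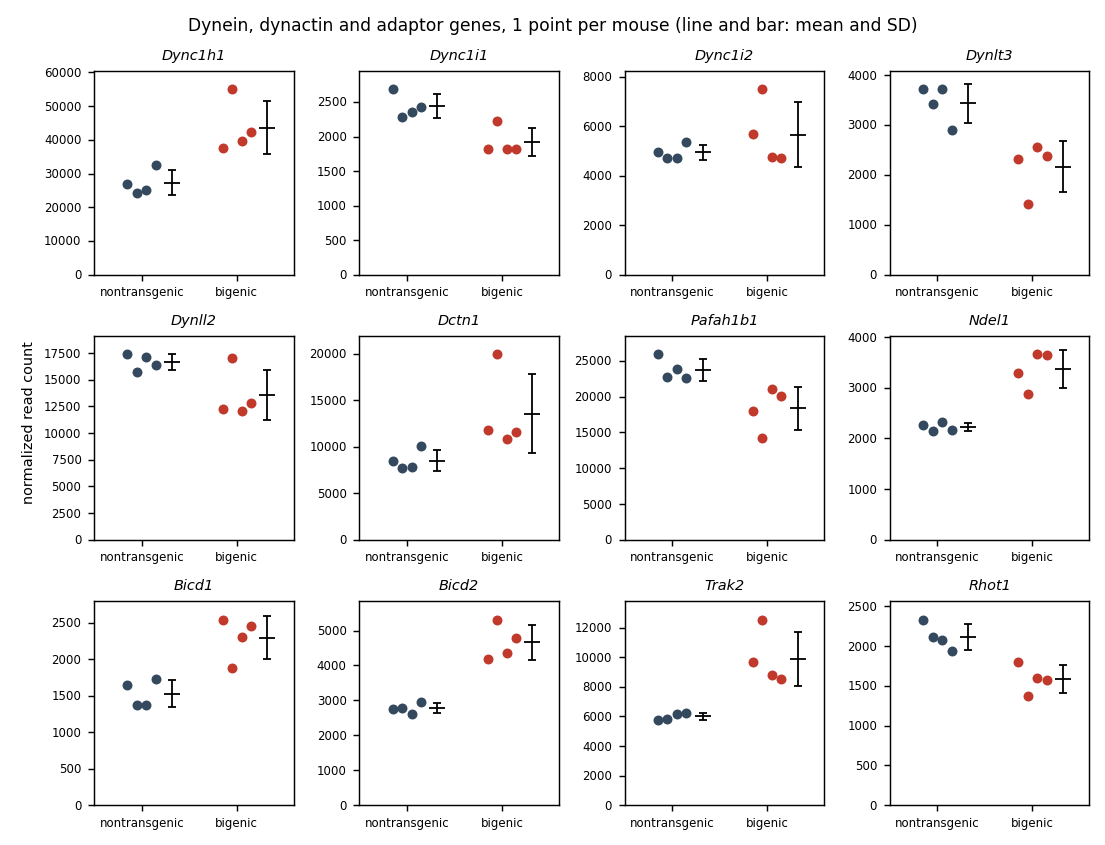
Each panel plots the normalized read count (y axis, starting at 0) of a dynein, dynactin, regulator or mitochondrial adaptor gene in the 4 nontransgenic and 4 bigenic mice (x axis), 1 point per mouse, with the group mean and SD as a line and bar. Dync1h1, Dctn1, Ndel1, Bicd1, Bicd2 and Trak2 lie higher and Dync1i1, Dynlt3, Pafah1b1 and Rhot1 lower in every bigenic mouse, while Dync1i2 and Dynll2 overlap.

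Myosins held both the largest increase and the largest decrease of the 61 members. Myo7a (chr7:105199570-105268034, minus strand), known as the motor of hair cell stereocilia and for its role in deafness, had 1030, 1776, 1100 and 1140 in bigenic and 251, 469, 442 and 424 in nontransgenic mice, a 3.19-fold difference (log2(fold change) = 1.67, SE 0.22, adjusted p = 0.000504). It was also among the least abundant members, at 46.5 ± 11.6 (SD, n = 4) normalized counts per kb in nontransgenic and 148 ± 40.6 in bigenic mice. Without bigenic mouse 2, the highest, its log2(fold change) was 1.496 (adjusted p = 9.61e-05). The choroid plexus markers that were higher in the same mice are given above, and their part in the Myo7a result was not tested.

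Myosin V motors carry endoplasmic reticulum and recycling endosomes into dendritic spines. Myo5b had 911, 786, 669 and 660 in bigenic and 1393, 1311, 1119 and 1480 in nontransgenic mice (log2(fold change) = -0.81, SE 0.13, adjusted p = 0.00108). Myo5a, far more abundant, had 19507, 21216, 20762 and 20332 in bigenic and 22586, 20588, 22221 and 22146 in nontransgenic mice, with overlapping groups (log2(fold change) = -0.10, SE 0.06, adjusted p = 0.257). Of the class I myosins, which link membranes to actin, Myo1e had 669, 943, 801 and 823 in bigenic and 524, 489, 540 and 541 in nontransgenic mice (log2(fold change) = 0.62, SE 0.11, adjusted p = 0.00194). Its groups did not overlap, while Myo1c (log2(fold change) = -0.06, SE 0.10, adjusted p = 0.694) and Myo1d (log2(fold change) = -0.23, SE 0.14, adjusted p = 0.227) did not pass the test.

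Myo16, a brain-enriched myosin that acts on actin at synapses, had 1134, 1286, 960 and 1093 in bigenic and 721, 685, 623 and 839 in nontransgenic mice (log2(fold change) = 0.64, SE 0.12, adjusted p = 0.00248). Myo18a, which links the Golgi to actin, had 8062, 14137, 7959 and 8520 in bigenic and 6017, 5537, 5904 and 7058 in nontransgenic mice. Bigenic mouse 2 was far above the other 3 (log2(fold change) = 0.62, SE 0.17, adjusted p = 0.0205), the log2(fold change) was 0.42 without it (adjusted p = 0.00162), and the call was lost without nontransgenic mouse 1, 2 or 3 (adjusted p between 0.0537 and 0.0620). Myo6, Myo9a, Myo9b, Myo10 and Myo19 did not pass, with log2(fold changes) between -0.35 and 0.13.

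The balance within related genes was compared as the log2 ratio of their normalized counts in each mouse, a measure that a scaling factor per mouse cannot change. For 9 of 18 pairs the ratios of the groups did not overlap, against 39.5% of the ratios of any 2 genes tested. The exact two-sided permutation test over 70 arrangements of the 8 mice gave p = 0.0286 for each of the 9, the smallest p that 4 against 4 mice allow, which became 0.0571 after adjustment over the 18 pairs, so no pair passed the threshold of 0.05. The largest difference was in Kif5b/Kif5c, whose log2 ratio was -0.88, -0.91, -0.85 and -0.84 in bigenic and -1.88, -1.87, -1.91 and -1.97 in nontransgenic mice, a difference of 1.04. Bigenic mouse 2 lay close to the other 3 bigenic mice in this ratio. Klc1/Klc2 was 0.88, 0.84, 0.75 and 0.56 in bigenic and 1.81, 1.79, 1.67 and 1.70 in nontransgenic mice, a difference of -0.98. Kif5a/Kif5c differed by 0.90, Myo5a/Myo5b by 0.72, Nde1/Ndel1 by -0.68 and Dync1i1/Dync1i2 by -0.52. Smaller differences without overlap were found for Kif21a/Kif21b (-0.31), Kif13a/Kif13b (0.25) and Kif1a/Kif1b (0.11).

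Bigenic mouse 2 stood on the other side of its group in some of the 9 pairs that overlapped. Dynll1/Dynll2 was -2.38, -1.97 and -2.07 in bigenic mice 1, 3 and 4, above the nontransgenic range of -2.74 to -2.60, and -3.24 in bigenic mouse 2. Without that mouse 14 of 18 pairs passed, with an adjusted exact permutation p of 0.0367 each, while the ratios of any 2 genes tested did not overlap in 49.3%. For Kif5a/Kif5b the ratio was 3.33 in bigenic mouse 2 and 2.53 to 2.73 in the other bigenic mice, against 2.84 to 3.01 in the nontransgenic mice.

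**Figure D4:**
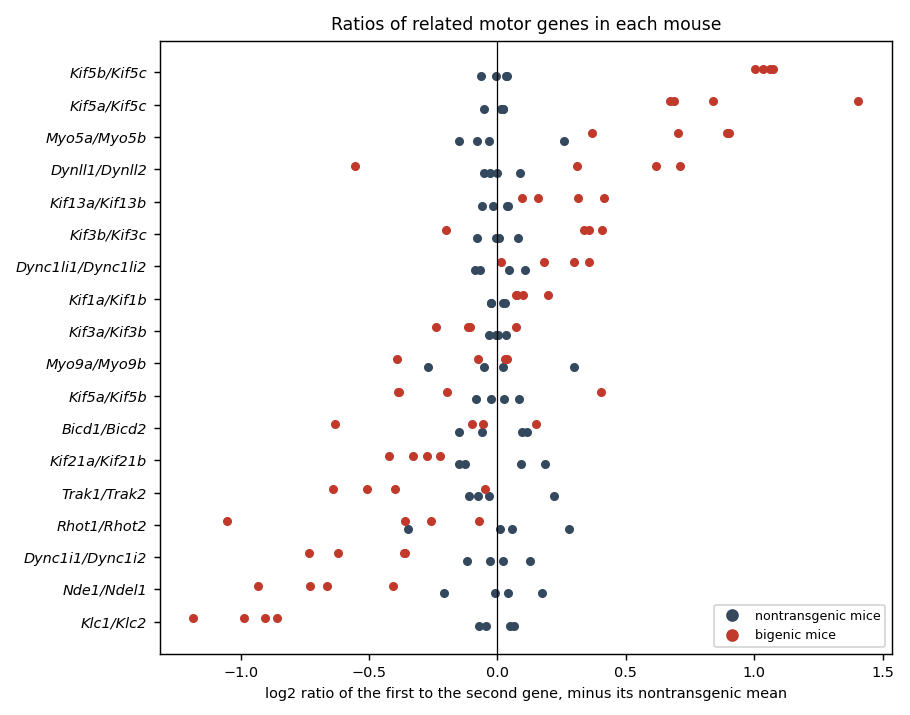
The x axis gives the log2 ratio of the first to the second gene of each pair (y axis) in each mouse, minus the mean ratio of the nontransgenic mice; dark points are nontransgenic and red points bigenic mice, 4 of each. Kif5b/Kif5c lies farthest to the right, with 4 bigenic points close together about 1.04 above the nontransgenic mean, and Klc1/Klc2 farthest to the left.

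Related genes that the rule does not take were counted in 4 lists. Among all genes tested 20.5% were called higher and 15.4% lower, and no list was tested against these shares. Of 48 genes for other motors, accessory proteins and cargo adaptors, 41 passed the filter, of which 12 were higher and 8 lower (median log2(fold change) 0.11). The 3 with the smallest adjusted p were all lower. Beside Kifap3 these were Hap1, the huntingtin-associated adaptor, with 940, 891, 634 and 617 in the bigenic and 2058, 2244, 1636 and 2957 in the nontransgenic mice (log2(fold change) = -1.52, SE 0.19, adjusted p = 0.000409), and Rilpl1, a Rab effector, with 642, 995, 652 and 677 against 1388, 1368, 1571 and 1854 (log2(fold change) = -1.07, SE 0.15, adjusted p = 0.000763). Neither gene had a bigenic mouse within the nontransgenic range.

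Axonemal dyneins drive motile cilia, and 4 of 23 passed the filter, of which Dnahc5 (log2(fold change) = -1.10, adjusted p = 0.000834) and Dnalc1 (-0.33, adjusted p = 0.00782), which is also counted among the 41, were lower, while Dnalc4 did not pass (-0.23, adjusted p = 0.259). Of 6 genes of nonmuscle myosin II that passed, the light chain genes Myl12b (-0.85, adjusted p = 0.000687) and Myl6 (-0.55, adjusted p = 0.00541) were lower, and Myl6b (0.54, adjusted p = 0.00974) and the heavy chain gene Myh10 (0.57, adjusted p = 0.0235) were higher. Dnahc5 passed the filter only through nontransgenic mice, and Myl6 only through nontransgenic mouse 2 (230 normalized counts). The calls of Dnahc5 and Myl6 as lower thus follow in part from the filter. Of 11 genes for tubulins, the track on which kinesins and dynein move, 2 were lower and none higher, where 15.4% of all genes tested were lower. Tuba1a had 3938, 2174, 4947 and 4454 in the bigenic and 7436, 7050, 7261 and 6460 in the nontransgenic mice (log2(fold change) = -0.93, SE 0.22, adjusted p = 0.00886), and Tubb2a had a log2(fold change) of -0.41 (adjusted p = 0.0423) with overlapping groups. Tubulin genes are close in sequence to one another, and how many of their reads were lost to the unique mapping was not examined. Tubb2c did not pass the test (-0.36, adjusted p = 0.0912).

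The members called higher had a median GC content of 51.9%, those called lower of 44.7% and those not called of 53.1%. The median was 51.6% over all members and 49.6% over all genes tested, and bigenic mouse 2 favoured genes of high GC content. With a trend on GC content and length removed from each mouse, all 29 calls remained and 31 members (50.8%) were called, Dynll2 and Myo19 being added, against 38.8% of all genes in the same fit. Without bigenic mouse 2 the 29 remained as well, and 31 (50.8%) were called, Dctn2 and Dynll2 being added, against 45.6% of all genes, so that the share of members lay closer to that of all genes than with all mice.

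**Figure D5:**
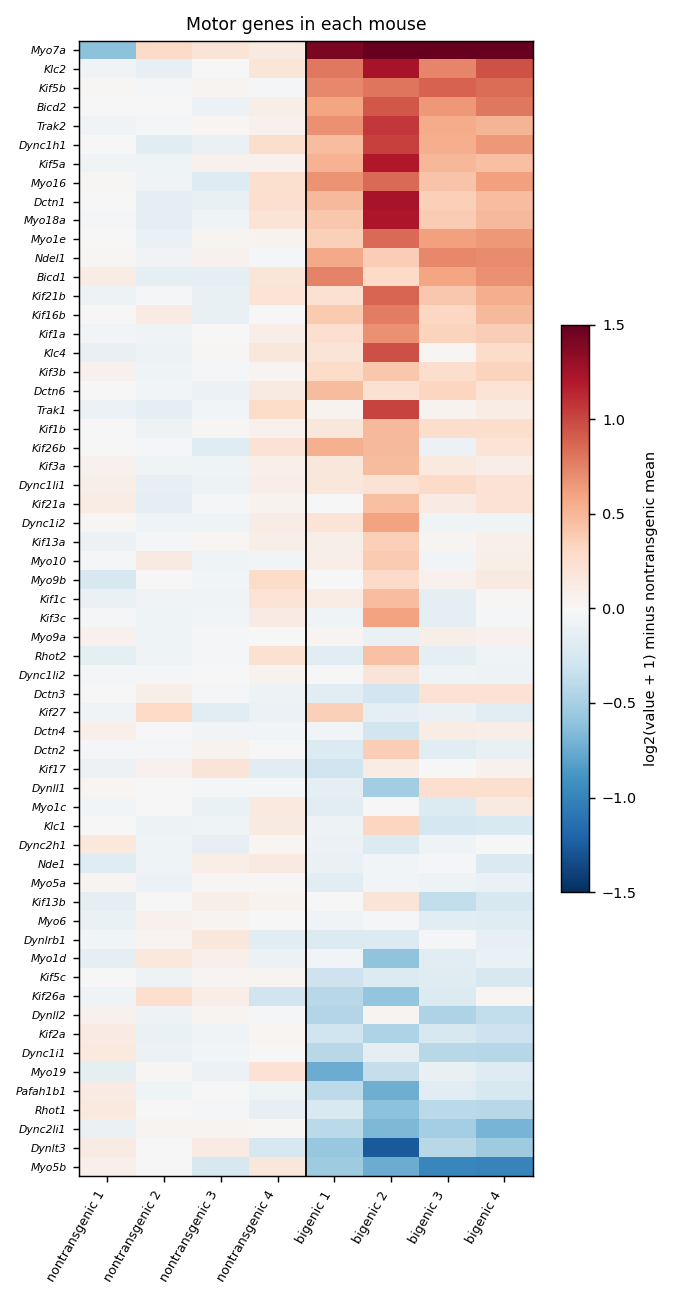
Rows are the 60 members shown, ordered by log2(fold change) and columns are the 8 mice; colour gives log2(value + 1) minus the mean of the nontransgenic mice, from blue (-1.5) to red (1.5), with stronger changes shown at the end of the scale. Bigenic mouse 2 shows the strongest colours in many rows, and it is the highest bigenic mouse in 35 of 60 rows, while the other 3 bigenic mice resemble each other.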

How the data were processed

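The authors sequenced poly(A)+ RNA from right cortex as single reads of 50 bases, removed adaptors (cutadapt), aligned the reads to mm9 using Bowtie 0.12.7, kept uniquely mapped reads, counted them on exons with bedtools and summed exons into genes. The deposited signal values are read counts normalized per mouse and rounded to whole numbers, not raw counts. The main test was therefore not one for raw counts. What 1 read is worth was estimated from the regular steps in each column, and 3 reads equal 1.94 to 6.20 normalized counts, which bounds counting error only. The second deposited table holds the authors' mean signal, their log2 fold changes and standard errors, and their p-values, and only its symbols and transcript identifiers were used.

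Genes that reached 10 RPM in 1 mouse or more were kept (10588 genes). Log2(value + 1) was compared between 4 bigenic and 4 nontransgenic mice by limma 3.58.1 with a trend in R 4.3.3, and p-values were adjusted by Benjamini-Hochberg and called below 0.05. The limma fit and the estimate of what 1 read is worth were each tested on simulated data. A fold change on this scale understates changes of low genes. Ratios were compared with exact permutation tests. Sequences, positions, exon lengths and GC content come from GENCODE M1 on NCBIM37, where all 61 members matched. The members, pairs and lists were chosen with earlier results of these data known. Values per mouse are given for members past the threshold whose groups do not overlap and that change by at least 0.5 (log2), and for 20 core genes of the complexes, except that 1 member is counted but not reported here by name. From each other list the 3 genes with the smallest adjusted p are named, and Myh10 was added after its values were seen. Alternatives were pseudocounts of 10 and 0.1, other filters, rescaling, quantile normalization, array weights, voom, stricter thresholds and leaving out each mouse. Voom was run on approximate reads, estimated from the steps in each column. Removal of a trend on GC content and length was added after seeing the data.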

Additional observations from a re-analysis of the deposited data

Results flagged for a closer look

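In each group of 4 mice, the highest or lowest mouse was compared with the others by Dixon's test, which flags about 1 in 20 groups by chance. Of 122 groups, 16 held a mouse that stood apart. In 12 of these it was bigenic mouse 2, always as the highest of its group: Kif5a (194201 normalized counts), Kif3a (9567), Kif3c (8161), Kif13a (1191), Dync1i1 (2225), Dynll2 (17064), Dctn1 (19953), Dctn2 (4903), Rhot2 (1392), Trak1 (8936), Myo18a (14137) and Myo7a (1776). This mouse had the fewest reads and its values rose with GC content, whose part in these flags was not tested. The other 4 were spread over as many mice. Kif27 was highest in bigenic mouse 1 (242), Kif1c in nontransgenic mouse 4 (2158) and Myo10 in nontransgenic mouse 2 (1200). Dync2li1 was lowest in nontransgenic mouse 1 (291), still above all bigenic mice.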

How the results depend on the processing

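Of the 29 members called, 0 changed sign in 492 alternative values, and 21 stayed called in every alternative fit that included them and with each mouse left out. Over the 8 fits without 1 mouse, 15 to 20 members were called higher and 7 to 11 lower, and 18 to 35 other transport genes were called, against 20, 9 and 27 with all mice. In the same 8 fits 37.7% to 50.8% of the members were called, against 25.1% to 45.6% of all genes. The pairs past the threshold ranged from 0 to 14, the 14 being without bigenic mouse 2, and this number depends on how many pairs reach the smallest p possible. Array weights, which give that mouse a weight of 0.0843, called 14 members lower, 37 of 61 members in all (60.7%, against 61.0% of all genes) and 41 other transport genes, and turned Dynll1 to 0.21 (adjusted p = 0.0141); the cause was not tested. An adjusted p below 0.01 left 4 members lower and 14 other transport genes, and fewer members were called higher as well. A change of at least 1.5-fold left 12 members higher, 2 lower and 10 other transport genes. The shares of all genes at these stricter settings are not given here, so these counts have no background beside them. Kif5c, Kif1b, Dync1li1 and Pafah1b1 lost their calls without a filter on low values, where more genes are tested (adjusted p between 0.0521 and 0.0936). Dctn6, Dync1li1 and Pafah1b1 lost theirs under quantile normalization (adjusted p between 0.0509 and 0.196). Of 1031 alternative values of single members, 945 stayed on the same side of the test, 30 lost and 18 gained significance, 37 moved and 1 reversed. With a filter in every mouse 55 members could be tested, and Dync2li1 was not among them. No paired analysis was possible because the deposited columns carry no replicate numbers. Kif26a, Kif26b and Kif27 were at low levels, and the part of sequencing depth in their results was not tested.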
